A study of Homo sapiens with 9 samples.

Results

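The genes described here are 8 keratins, intermediate filament proteins of epithelial cells, most of them known from liver, bile duct or other simple epithelia and KRT10 better known from epidermis. They were chosen by name (KRT7, KRT8, KRT10, KRT18, KRT19, KRT20, KRT23 and KRT80). Each symbol matched a unique Ensembl identifier of the deposited count table, which gives 8 genes of 60664, and all 8 passed the filter on low counts.

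The Huh-7 cell line derives from a human hepatocellular carcinoma. Stranded mRNA libraries were made from 3 lines of these cells, 3 for each line, grown untreated in DMEM/F12 medium with fetal bovine serum. WT cells carried the vault RNA genes, 1-1 KO cells lacked VTRNA1-1 and 1-2 KO cells lacked VTRNA1-2, both removed by CRISPR/Cas9. Vault RNAs are short noncoding transcripts, and the question behind the comparisons was how loss of either paralog alters the mRNAs of these cells. WT and 1-1 KO cells came from another laboratory, while the 1-2 KO line was a clone grown from a single WT cell, so that each knockout was 1 line and the effect of the knockout and of the line cannot be told apart. RNA was extracted in triplicate, and the study calls the 3 samples of a line biological replicates. The labels do not say whether the libraries of a line came from separate cultures. P-values therefore measure only the spread between these libraries.

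Keratins are intermediate filament proteins that assemble as heteropolymers of a type I (acidic) and a type II (basic) chain. Hepatocytes contain mainly the pair of keratin 8 (type II) and keratin 18 (type I), a network that protects the cell against mechanical and toxic stress. Bile duct cells add keratin 7 (type II) and keratin 19 (type I), and keratin 20 is a type I chain of intestinal epithelium. Among the genes described here 3 encode type II chains (KRT7, KRT8 and KRT80) and 5 encode type I chains (KRT10, KRT18, KRT19, KRT20 and KRT23).

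The total count was between 32384469 and 41782387 per library. No library held a count of VTRNA1-2, and a count of 1 in WT replicate 1 was all that was found of VTRNA1-1, so that these mRNA libraries do not test the loss of either target. Levels are CPM, the counts of a gene per 1000000 counts of the library after TMM scaling, and are given as mean ± SD (n = 3 libraries in every line). A gene was called where edgeR's quasi-likelihood p, adjusted over all 17207 tested genes by the Benjamini-Hochberg method, was under 0.05. Of 12 hepatocyte marker genes 11 had a mean of at least 1 CPM in each line. In bulk RNA, fewer cells that express a gene and less RNA of it per cell cannot be told apart.

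The type II genes KRT80, KRT7 and KRT8 lie on chromosome 12 of GRCh38 in the GENCODE 44 annotation, and KRT18 lies beside KRT8. KRT80 (ENSG00000167767) spans chr12:52168996-52192014 on the minus strand, and KRT7 (ENSG00000135480) spans chr12:52232520-52252186 on the plus strand. KRT8 (ENSG00000170421, chr12:52897187-52949954, minus strand) and KRT18 (ENSG00000111057, chr12:52948871-52952906, plus strand) overlap with 525 nt of shared exon sequence on opposite strands. The other type I genes lie on the minus strand of chromosome 17, KRT10 (ENSG00000186395) at chr17:40818117-40822614, KRT20 (ENSG00000171431) at chr17:40875889-40885242, KRT23 (ENSG00000108244) at chr17:40922700-40937646 and KRT19 (ENSG00000171345) at chr17:41523617-41528308. Their canonical transcripts have between 6 and 9 exons, with the shortest in KRT19 (1390 nt) and the longest in KRT80 (3873 nt).

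KRT8 and KRT18 have many processed pseudogenes, intronless copies of their mRNAs elsewhere in the genome, and this bears on how their reads can be counted. Of the 50-base windows along the canonical transcript, 47.1% of KRT8 (817 of 1735) and 39.2% of KRT18 (534 of 1364) were also found elsewhere in GRCh38. The share was 1.79% in KRT19, 0.825% in KRT7, 0.418% in KRT80 and 0 in KRT10, KRT20 and KRT23. The following stretches are an example from a single copy. They were picked as the first 60 bases of KRT18 coding sequence with exactly 2 mismatches, so that they do not measure how alike the copies are. The first is exonic coding sequence of KRT18 (positions 19 to 78 of its coding sequence, chr12:52949192-52949251, plus strand), the second is the matching stretch of KRT18P11 (ENSG00000215089, chrX:92459685-92459744, plus strand), both 5′ to 3′ from GRCh38, and capitals mark the 2 bases at which they differ.
KRT18: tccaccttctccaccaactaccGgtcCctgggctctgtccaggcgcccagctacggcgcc
KRT18P11: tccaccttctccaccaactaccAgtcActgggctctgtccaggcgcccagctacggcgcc
Of the 1234 stretches of 60 bases along the coding sequence of KRT18, 88 (7.13%) were identical in KRT18P11. KRT18P11 itself held a mean of 2299 counts per library in the deposited table, and how reads that match several places were counted is not given in the sources used here.

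Among the 8 keratins, KRT8, KRT18, KRT19 and KRT23 rose in 1-1 KO compared to WT while KRT80 fell and KRT7 was also called lower. These 6 calls of 8 stand against 63.4% of all tested genes called in the same comparison (32.5% higher and 30.9% lower). In 1-2 KO compared to WT only KRT19 was called higher among them, and KRT7, KRT10, KRT23 and KRT80 were called lower. That made 5 calls of 8, against 54.4% of all tested genes (28.2% higher and 26.2% lower). Compared directly, 1-2 KO differed from 1-1 KO in 7 of the 8 genes, 2 higher and 5 lower, against 65.3% of all tested genes (33.1% higher and 32.2% lower). KRT7 passed the filter on low counts only through WT, the line where it was highest, so that its calls against WT support nothing, and without it the 3 counts were 5, 4 and 6 of 7. The last of these counts still includes KRT20. It passed the filter through WT and 1-1 KO libraries alone, so that its call between the knockouts supports nothing either. The median log2 fold change of the 8 genes was 0.19 in 1-1 KO and -0.69 in 1-2 KO, beside 0.01 and 0.02 over all tested genes. Without regard to direction, the median size was 0.36 and 0.69 on the log2 scale, beside 0.35 and 0.27 over all tested genes. KRT7 and KRT20 are part of these medians, which are therefore a description and support nothing about the 8 genes as a set. Both comparisons use the same WT libraries and are not independent of each other.

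**Figure D1:**
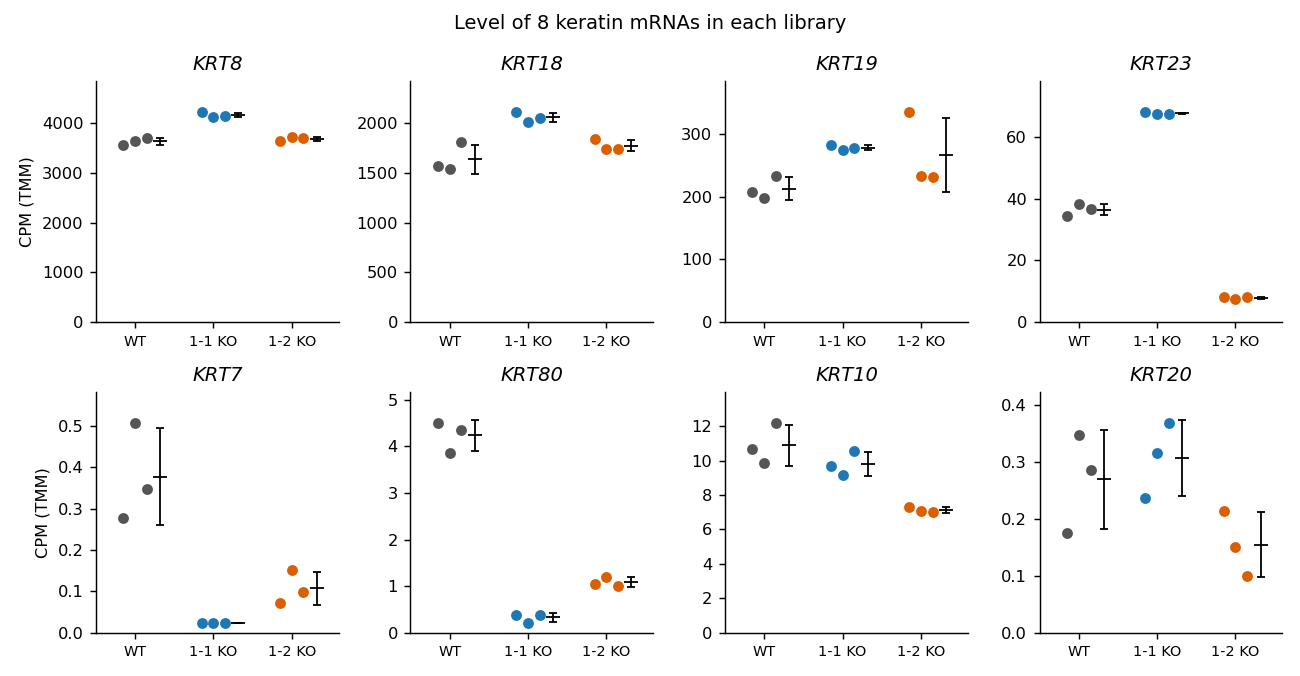
Level of each keratin mRNA in CPM (TMM scaling, linear axes from 0, a separate scale per gene), with 1 point per library and the mean ± SD of 3 libraries beside them, for the WT, 1-1 KO and then 1-2 KO line. KRT23 stands at 36.5 CPM in WT, 67.6 CPM in 1-1 KO and 7.92 CPM in 1-2 KO, while KRT7 and KRT80 are highest in WT and lowest in 1-1 KO.

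The hepatocyte pair was the most abundant. KRT8 measured 3568, 3652 and 3706 CPM in the WT libraries, 4217, 4132 and 4142 CPM in 1-1 KO, and 3646, 3718 and 3700 CPM in 1-2 KO. All 1-1 KO libraries lay above every other library, whereas WT and 1-2 KO overlapped. The level rose from 3642 ± 69.8 CPM in WT to 4164 ± 46.4 CPM in 1-1 KO, a log2 fold change of 0.19 (SE 0.03, edgeR adjusted p = 0.000117), or 1.14-fold. In 1-2 KO the level was 3688 ± 37.3 CPM, the log2 fold change from WT was 0.02 (edgeR adjusted p = 0.661), and the 95% interval of the ratio to WT ran from 0.965 to 1.06. Between the knockouts, KRT8 was 1.13-fold lower in 1-2 KO (log2 fold change -0.18, edgeR adjusted p = 0.000259).

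KRT18, the type I partner of KRT8, measured 1570, 1538 and 1809 CPM in WT, 2111, 2018 and 2053 CPM in 1-1 KO, and 1843, 1744 and 1747 CPM in 1-2 KO. The 1-1 KO libraries again lay above all others, and WT replicate 3 reached into the range of 1-2 KO. From 1639 ± 148 CPM in WT, KRT18 rose 1.26-fold to 2060 ± 46.9 CPM in 1-1 KO (log2 fold change 0.33, SE 0.05, edgeR adjusted p = 8.44e-05). Its level of 1778 ± 56.2 CPM in 1-2 KO gave a log2 fold change of 0.12 from WT that missed the threshold (edgeR adjusted p = 0.0763), with a 95% interval of the ratio from 1.00 to 1.17. This call rested on WT replicate 3, without which the log2 fold change was 0.17 (edgeR adjusted p = 0.00262). KRT18 was 1.16-fold lower in 1-2 KO than in 1-1 KO (log2 fold change -0.21, edgeR adjusted p = 0.00282).

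Counts assigned to the pseudogenes of the pair were measured beside these values. The table lists 51 pseudogenes of KRT8, 47 of them with counts, and together they held between 3.02% and 3.30% of the counts of KRT8 and its copies in a library. For KRT18 it lists 67, of which 61 had counts, with between 6.92% and 7.44% of the counts of gene and copies. The most abundant were KRT8P3 on chromosome 8 (mean count 2579) and KRT18P11 on chromosome X (mean count 2299). Of 24 tested KRT8 pseudogenes, 8 were called higher and 0 lower in 1-1 KO, and the median over the 24 was a log2 fold change of 0.22. Of 24 tested KRT18 pseudogenes, 10 were called higher and 0 lower, with a median of 0.36. In 1-2 KO the medians were 0.00 and 0.01, with 0 called higher and 1 lower for KRT8 and 4 higher and 1 lower for KRT18. Over all tested genes, 32.5% were called higher and 30.9% lower in 1-1 KO, and 28.2% higher and 26.2% lower in 1-2 KO. The parent genes stood at 0.19 and 0.33 in 1-1 KO, close to the medians of their copies. Whether these counts were reads of the parent genes was not tested.

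Of the bile duct keratins, KRT19 was called higher in 1-1 KO, while the lower level of KRT7 there is a description with no test. KRT19 measured 208, 198 and 233 CPM in WT, 283, 275 and 278 CPM in 1-1 KO, and 335, 234 and 232 CPM in 1-2 KO. The 1-1 KO libraries stood above WT with no overlap, while 1-2 KO replicate 1 was the highest of all and the remaining 1-2 KO libraries sat at the level of WT replicate 3. Levels were 213 ± 18.1 CPM in WT and 279 ± 4.11 CPM in 1-1 KO, a 1.31-fold rise (log2 fold change 0.39, SE 0.11, edgeR adjusted p = 0.00604). In 1-2 KO, at 267 ± 58.8 CPM, the rise was 1.25-fold (log2 fold change 0.33, SE 0.11, edgeR adjusted p = 0.0197). Without 1-2 KO replicate 1 this log2 fold change was 0.13 (edgeR adjusted p = 0.0427), so that most of its size came from 1 library. The call was lost with DESeq2 (log2 fold change 0.31, adjusted p = 0.113), in a fit of only the 2 lines compared (edgeR adjusted p = 0.0573), and without WT replicate 1 (edgeR adjusted p = 0.0553) or WT replicate 2 (edgeR adjusted p = 0.0888). Between the knockouts KRT19 was not called (log2 fold change -0.06, edgeR adjusted p = 0.630), with a 95% interval of the ratio from 0.816 to 1.12. Without 1-2 KO replicate 1, however, KRT19 was lower in 1-2 KO than in 1-1 KO (log2 fold change -0.26, edgeR adjusted p = 0.000414).

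KRT7, the type II keratin of the bile ducts, was barely present. Its counts were 11, 19 and 11 in WT, 1 in each library of 1-1 KO, and 3, 6 and 4 in 1-2 KO. WT lay above both knockouts and 1-2 KO above 1-1 KO without overlap, but only the WT libraries carried KRT7 over the filter on low counts, so that it had to be high there to be tested at all. In CPM the levels were 0.377 ± 0.118 in WT, 0.0242 ± 0.000462 in 1-1 KO and 0.107 ± 0.0402 in 1-2 KO. The summed counts of 41 in WT and 3 in 1-1 KO gave a ratio of 15.6, with a 95% counting interval from 4.98 to 78.8, and the ratio of WT to 1-2 KO (13 counts) was 3.54, with an interval from 1.86 to 7.19. Such intervals cover counting error only. The fitted log2 fold changes from WT were -3.80 in 1-1 KO and -1.79 in 1-2 KO, and for the reason given they are a description with no test. The difference between the knockouts, 4.41-fold in summed counts (95% counting interval 1.21 to 24.1), had an edgeR adjusted p of 0.0235 and was lost with DESeq2 (adjusted p = 0.0957). It was also lost without any of the 1-1 KO libraries (edgeR adjusted p between 0.0552 and 0.0578) and without 1-2 KO replicate 2 (edgeR adjusted p = 0.0877).

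KRT23 moved in opposite directions in the knockouts. This type I keratin, known from simple epithelia and stressed liver, measured 34.5, 38.3 and 36.6 CPM in WT, 67.9, 67.5 and 67.4 CPM in 1-1 KO, and 8.05, 7.58 and 8.14 CPM in 1-2 KO. No 2 lines overlapped, and the lines stood in the order 1-1 KO, WT, 1-2 KO. From 36.5 ± 1.89 CPM in WT, KRT23 rose 1.85-fold to 67.6 ± 0.280 CPM in 1-1 KO (log2 fold change 0.89, SE 0.05, edgeR adjusted p = 9.63e-10). In 1-2 KO it fell 4.60-fold to 7.92 ± 0.296 CPM (log2 fold change -2.20, SE 0.05, edgeR adjusted p = 6.48e-13). The direct comparison showed 8.53-fold less KRT23 in 1-2 KO than in 1-1 KO (log2 fold change -3.09, SE 0.05, edgeR adjusted p = 9.37e-15). Over 18 alternative settings the log2 fold change ranged from 0.85 to 0.94 in 1-1 KO and from -2.24 to -2.15 in 1-2 KO. An antisense gene that shares 186 nt of exon sequence with KRT23 had between 0 and 3 counts per library.

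KRT80, a type II keratin of differentiating epithelial cells, fell in both knockouts. Its counts were 179, 145 and 137 in WT, 16, 9 and 16 in 1-1 KO, and 44, 48 and 40 in 1-2 KO. The lines did not overlap, with WT highest and 1-1 KO lowest, which is also the order of KRT7. The level of 4.24 ± 0.329 CPM in WT fell 12.7-fold to 0.330 ± 0.0963 CPM in 1-1 KO (log2 fold change -3.67, SE 0.18, edgeR adjusted p = 5.80e-10). In 1-2 KO it was 1.08 ± 0.109 CPM, 3.91-fold lower than in WT (log2 fold change -1.97, SE 0.15, edgeR adjusted p = 5.98e-08). KRT80 was thus 3.26-fold higher in 1-2 KO than in 1-1 KO (log2 fold change 1.70, SE 0.22, edgeR adjusted p = 8.92e-06). The summed counts, 461 in WT, 41 in 1-1 KO and 132 in 1-2 KO, gave a ratio of WT to 1-1 KO of 12.8 with a 95% counting interval from 9.31 to 18.1.

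KRT10, the type I keratin of suprabasal epidermis, was low and fell in 1-2 KO. It measured 10.7, 9.84 and 12.2 CPM in WT, 9.67, 9.19 and 10.6 CPM in 1-1 KO, and 7.31, 7.06 and 7.04 CPM in 1-2 KO. WT and 1-1 KO overlapped, and all libraries of 1-2 KO lay below both. The level fell 1.52-fold from 10.9 ± 1.18 CPM in WT to 7.14 ± 0.153 CPM in 1-2 KO (log2 fold change -0.61, SE 0.09, edgeR adjusted p = 4.37e-05). For 1-1 KO, at 9.81 ± 0.698 CPM, the log2 fold change of -0.15 was not called (edgeR adjusted p = 0.145), and the ratio to WT had a 95% interval from 0.794 to 1.02. The direct comparison, which tests the difference between the knockouts, gave a 1.37-fold lower level in 1-2 KO (log2 fold change -0.46, edgeR adjusted p = 0.000371). KRT10-AS1, an antisense gene with 61 nt of shared exon sequence, measured 29.4 ± 1.26 CPM in WT, 20.8 ± 0.579 CPM in 1-1 KO and 20.5 ± 1.09 CPM in 1-2 KO. It was called lower in both knockouts (log2 fold changes -0.50 and -0.52, edgeR adjusted p = 2.57e-06 and 2.34e-06). Whether the counting used the strand is not given in the sources used here, so that reads of the shared stretch cannot be told apart.

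KRT20, the intestinal type I keratin, was close to the limit of detection. Its counts were 7, 13 and 9 in WT, 10, 13 and 15 in 1-1 KO, and 9, 6 and 4 in 1-2 KO. WT overlapped with both knockouts, and 1-2 KO lay below 1-1 KO once scaled for depth. Levels were 0.269 ± 0.0865 CPM in WT, 0.307 ± 0.0662 CPM in 1-1 KO and 0.155 ± 0.0570 CPM in 1-2 KO. Neither knockout differed from WT in the edgeR test (log2 fold changes 0.20 and -0.77, adjusted p = 0.657 and 0.137), and the 95% intervals of the ratio ran from 0.667 to 1.97 and from 0.316 to 1.10. The summed counts of 38 in 1-1 KO and 19 in 1-2 KO gave a ratio of 1.96 with a 95% counting interval from 1.10 to 3.61 and an edgeR adjusted p of 0.0456, a call that was lost in 10 of 16 alternative settings (DESeq2 adjusted p = 0.204). KRT20 passed the filter on low counts through libraries of WT and 1-1 KO alone, so that its difference between the knockouts is a description with no test. For comparison, 11 other intestinal epithelial markers were tested, of which 8 were called higher and 1 lower in 1-1 KO and 7 higher and 1 lower in 1-2 KO (81.8% and 72.7% called, beside 63.4% and 54.4% of all tested genes). An example was CDX2, an intestinal transcription factor, with 2.02 CPM in WT, 19.4 CPM in 1-1 KO and 17.6 CPM in 1-2 KO. CDH17, an intestinal cadherin, had 10.6, 104 and 24.6 CPM, and SI, the sucrase-isomaltase gene, went from 2 to 3 counts per library in WT to 1000 to 1198 in 1-1 KO and 333 to 392 in 1-2 KO, passing the filter through the knockouts alone. The marker GUCY2C, named for this reason only, passed in the same way, with 0.118, 10.3 and 3.21 CPM in WT, 1-1 KO and then 1-2 KO. The higher calls of SI and GUCY2C are part of the counts above and support nothing. The summed level of the list of 14 was lower in the knockouts, at 662 to 676 CPM in 1-1 KO and 881 to 954 CPM in 1-2 KO against 983 to 1048 CPM in WT. Most of that sum was VIL1, the gene of the microvillus protein villin, which was the marker called lower in both, with 984 ± 32.6, 445 ± 4.56 and 840 ± 35.2 CPM in WT, 1-1 KO and then 1-2 KO (edgeR adjusted p = 1.38e-11 and 0.000175) and was singled out after its values were seen. FABP2, CDX1 and MUC2 were at 0 counts in WT. KRT20 itself was called against WT in neither knockout.

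**Figure D2:**
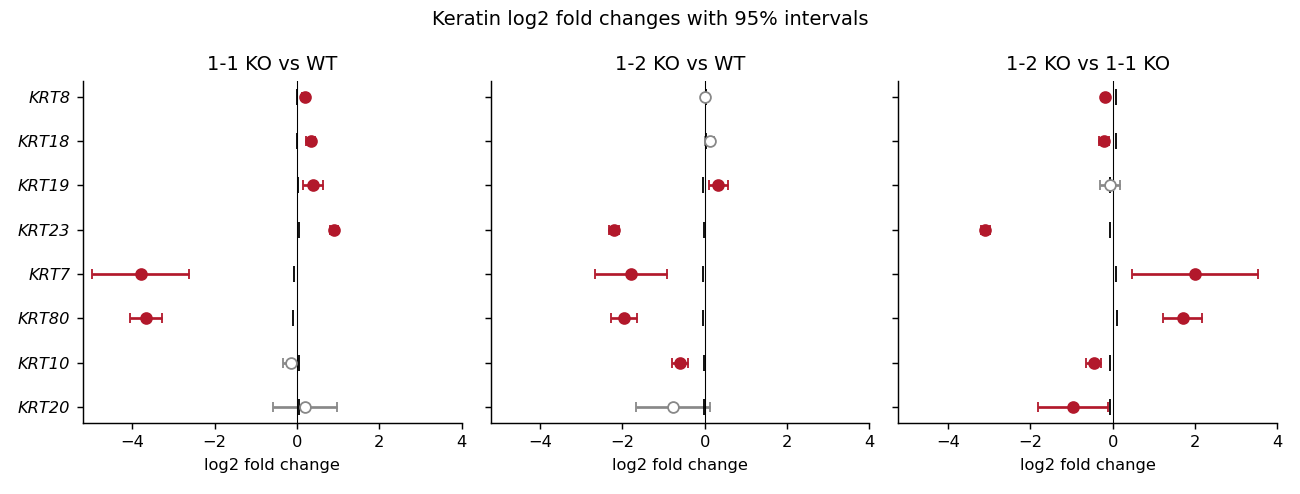
Log2 fold change (x axis) of each keratin in 1-1 KO compared to WT, 1-2 KO compared to WT and 1-2 KO compared to 1-1 KO, with 95% intervals from edgeR. Filled points have an adjusted p under 0.05, open points do not, and black ticks mark the median of the 50 nearest tested genes on the chromosome. KRT23 stands at 0.89, -2.20 and -3.09, and KRT80 at -3.67, -1.97 and 1.70.

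The genes around the keratins showed little shared shift in 1 direction. The median log2 fold change of the 50 nearest tested non-keratin genes on the chromosome ran from -0.09 to 0.06 in 1-1 KO and from -0.04 to 0.02 in 1-2 KO for all 8 genes. Over all tested genes it was 0.01 and 0.02. Such a median stays near 0 where rises and falls balance, so that it does not show how far single neighbours changed.

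Levels were compared between genes only after division by the length of the canonical transcript. In WT the order in CPM per kilobase was KRT8 (2041), KRT18 (1160), KRT19 (153), KRT23 (16.5), KRT10 (5.09), KRT80 (1.09), KRT7 (0.232) and KRT20 (0.149). Only KRT7 and KRT20, the lowest pair, overlapped between libraries. In 1-1 KO the order of the upper genes was the same, at 2334, 1458, 201, 30.6 and 4.58 CPM per kilobase, but KRT20 (0.170) now stood above KRT80 (0.0851) and KRT7 (0.0149), and no neighbours overlapped. In 1-2 KO the levels were 2067, 1258 and 192 CPM per kilobase for KRT8, KRT18 and KRT19, and KRT23 (3.59) came close to KRT10 (3.33), although their libraries did not overlap. Below them came KRT80 (0.280), KRT20 (0.0858) and KRT7 (0.0660), of which the lower pair overlapped. The order of close neighbours depends on the length used. With the union of all annotated exons, KRT18 came before KRT8 in WT (534 and 529 CPM per kilobase), 1-1 KO (671 and 605) and 1-2 KO (579 and 536), KRT20 came before KRT7 in WT (0.141 and 0.0943), and KRT10 came before KRT23 in 1-2 KO (3.30 and 2.72).

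**Figure D3:**
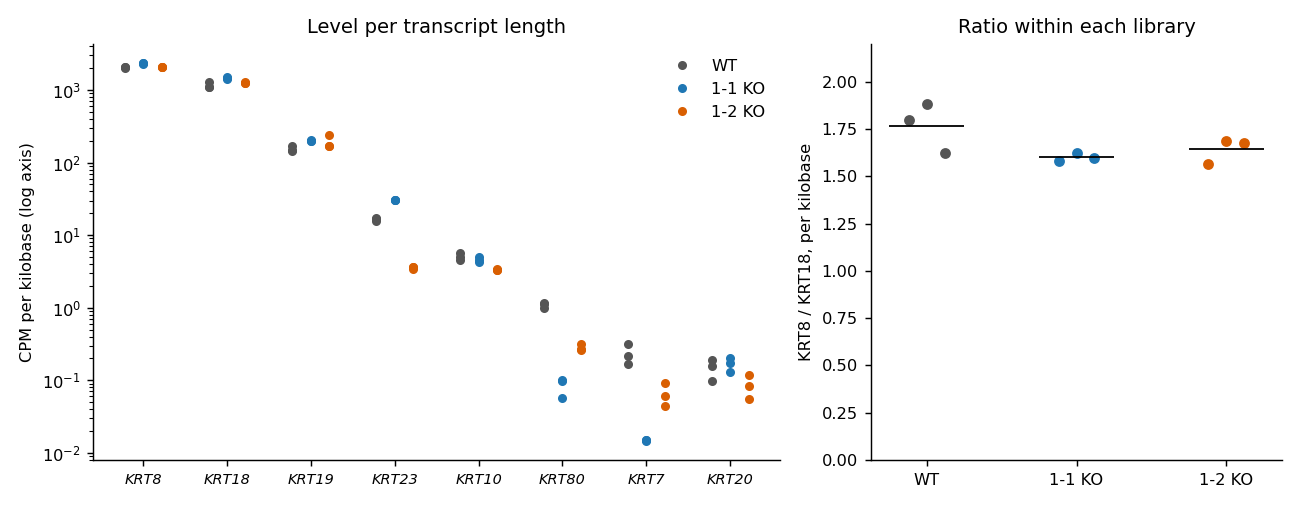
Left, CPM per kilobase of canonical transcript (log axis) for each keratin, with 1 point per library (WT, then 1-1 KO, then 1-2 KO). Right, ratio of KRT8 to KRT18 per kilobase in each library (linear axis from 0), with a line at the geometric mean of each line's 3 libraries, which is 1.76 in WT, 1.60 in 1-1 KO and 1.64 in 1-2 KO.

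The keratin pool was almost entirely the hepatocyte pair. Without TMM scaling, the 8 genes held 0.527% to 0.565% of counts in WT, 0.656% to 0.677% in 1-1 KO and 0.572% to 0.600% in 1-2 KO. In these unscaled shares each knockout library lay above every WT library. After TMM scaling, KRT8 and KRT18 each overlapped between WT and 1-2 KO, so that the separation of these 2 lines rests on unscaled counts. KRT8 and KRT18 made up between 94.0% and 95.6% of the counts of the 8 genes. Per kilobase, KRT8 took 60.4% of the summed mean levels in WT, 57.9% in 1-1 KO and 58.6% in 1-2 KO, and KRT19 took 4.53%, 4.98% and 5.45%. With the union of exons as the length the share of KRT8 was 45.1%, 42.5% and 43.4%, below that of KRT18 at 45.5%, 47.2% and 46.9%, and that of KRT19 was 7.77%, 8.38% and 9.24%. The large fold changes of KRT23 and KRT80 were therefore changes of minor keratins.

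Since type I and type II chains assemble together, the ratio of KRT8 to KRT18 was taken within each library, where it does not depend on scaling. Per kilobase it was 1.80, 1.88 and 1.62 in WT, 1.58, 1.62 and 1.60 in 1-1 KO, and 1.57, 1.69 and 1.68 in 1-2 KO. The lowest WT library only just exceeded the highest 1-1 KO library, while 1-2 KO overlapped with both. On the log2 scale the ratio was 0.82 ± 0.11 in WT, 0.68 ± 0.02 in 1-1 KO and 0.72 ± 0.06 in 1-2 KO. The difference of -0.14 between 1-1 KO and WT had an exact two-sided permutation p of 0.1, the smallest that 3 against 3 libraries can give. In 1-2 KO compared to WT the difference was -0.10 (exact permutation p = 0.3), and between the knockouts it was 0.04 (exact permutation p = 0.4). The absolute ratio depends on the length used, and with the union of all annotated exons as the length the log2 ratio turned to -0.01 in WT, -0.15 in 1-1 KO and -0.11 in 1-2 KO, while the differences between lines stayed the same.

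The sum of the 3 type II genes over the sum of the 5 type I genes followed the main pair. Its log2 ratio per kilobase was 0.62 ± 0.11 in WT, 0.46 ± 0.02 in 1-1 KO and 0.51 ± 0.09 in 1-2 KO. The difference from WT was -0.15 in 1-1 KO (exact permutation p = 0.1) and -0.11 in 1-2 KO (exact permutation p = 0.3), and the knockouts differed by 0.04 (exact permutation p = 0.4). With the union of exons as the length the values were -0.27, -0.44 and -0.38, again with a type II share that was lowest in 1-1 KO.

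Of the other 47 protein-coding keratin genes only KRT15, KRT17 and KRT222 passed the filter, and between 25 and 32 of the 47 had 0 counts in all libraries of a line. KRT17, a type I keratin of basal and injured epithelium, measured 2.44 ± 0.116 CPM in WT, 0.866 ± 0.294 CPM in 1-1 KO and 2.75 ± 0.560 CPM in 1-2 KO. It fell in 1-1 KO (log2 fold change -1.49, edgeR adjusted p = 2.79e-05) and was not called in 1-2 KO (log2 fold change 0.18, edgeR adjusted p = 0.434). KRT15, a type I keratin of basal cells, measured 0.242 CPM in WT, 0.562 CPM in 1-1 KO and 0.237 CPM in 1-2 KO, with 8 to 9, 18 to 30 and 8 to 11 counts per library. All 1-1 KO libraries reached the level that the filter asks for, against 1 of WT and 2 of 1-2 KO, so that its difference is a description with no test. KRT222 was called in neither knockout against WT (edgeR adjusted p = 0.0844 and 0.0895).

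Proteins that anchor or organise keratin filaments were followed as a list of 22 genes, of which 21 were tested. In 1-1 KO compared to WT 11 of them were higher, 3 lower and 7 not called (median log2 fold change 0.32), so that 66.7% were called, close to the 63.4% of all tested genes. For 1-2 KO the count was 7 higher, 9 lower and 5 not called (median -0.08), or 76.2% called beside 54.4% of all tested genes. Desmoplakin (DSP), which ties keratins to desmosomes, went from 363 ± 6.61 CPM in WT up to 561 ± 10.9 CPM in 1-1 KO (edgeR adjusted p = 1.95e-09) and down to 226 ± 7.02 CPM in 1-2 KO (edgeR adjusted p = 1.04e-09), the same order of lines as KRT23. DSG2, a desmosomal cadherin, rose from 75.4 to 171 CPM in 1-1 KO (edgeR adjusted p = 6.93e-12). In 1-2 KO it measured 67.4 CPM and was called lower (log2 fold change -0.16, edgeR adjusted p = 0.0027). PKP2, a desmosomal plaque protein, rose from 94.2 to 177 CPM in 1-1 KO (edgeR adjusted p = 3.57e-11) and was 95.3 CPM in 1-2 KO (edgeR adjusted p = 0.683). The desmocollin DSC3, which passed the filter through the knockouts, measured 0.151 CPM in WT, 2.88 CPM in 1-1 KO and 3.71 CPM in 1-2 KO, given with no test. Its higher calls in both knockouts are part of the counts above and support nothing.

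Other intermediate filament proteins were followed as well. Among 11 tested genes, 2 were called higher and 7 lower in 1-1 KO (median log2 fold change -0.47), against 4 higher and 5 lower in 1-2 KO (median -0.02). That was 81.8% called in each knockout, beside 63.4% and 54.4% of all tested genes. Vimentin (VIM), the intermediate filament of mesenchymal cells, fell from 852 ± 13.7 CPM in WT to 453 ± 2.14 CPM in 1-1 KO and 622 ± 4.75 CPM in 1-2 KO (edgeR adjusted p = 1.38e-11 and 1.97e-08). Nestin (NES), a filament protein of progenitor cells, fell from 1930 ± 141 CPM to a mean of 501 CPM in 1-1 KO and to 1538 ± 44.2 CPM in 1-2 KO (edgeR adjusted p = 1.02e-12 and 5.47e-05). LMNA, the gene of nuclear lamins A and C, was 360 ± 26.0 CPM in WT and lower at 180 ± 1.83 CPM in 1-1 KO and 232 ± 27.9 CPM in 1-2 KO (edgeR adjusted p = 1.94e-08 and 2.53e-06). In 1-1 KO, VIM and NES were thus called lower where KRT8 and KRT18 were called higher.

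Markers of the cell types in which these keratins are known moved between the lines as well. The 12 hepatocyte markers summed to 13408 to 14221 CPM in WT, 23144 to 23873 CPM in 1-1 KO and 14235 to 15730 CPM in 1-2 KO. Of 11 tested, 9 were higher and 1 lower in 1-1 KO, against 3 higher and 5 lower in 1-2 KO (90.9% and 72.7% called, beside 63.4% and 54.4% of all tested genes). The albumin gene ALB rose from 2532 ± 55.3 CPM in WT to 9427 ± 242 CPM in 1-1 KO and 4739 ± 280 CPM in 1-2 KO (edgeR adjusted p = 4.07e-13 and 5.60e-10). TTR, the gene of transthyretin, went from 111 CPM up to 336 CPM in 1-1 KO and down to 71.6 CPM in 1-2 KO, and ASGR1, a hepatocyte surface receptor, fell from 95.2 CPM to 70.3 and 63.6 CPM. The 18 biliary epithelial markers, keratins not included, summed to 1939 to 1942 CPM in WT, 2032 to 2044 CPM in 1-1 KO and 1796 to 1817 CPM in 1-2 KO. Of 16 tested biliary markers, 11 were higher and 4 lower in 1-1 KO, against 6 higher and 5 lower in 1-2 KO (93.8% and 68.8% called, against the same background). EPCAM, an adhesion molecule of bile duct and progenitor cells, rose from 35.5 to 104 CPM in 1-1 KO (edgeR adjusted p = 5.07e-13) and measured 34.7 CPM in 1-2 KO (edgeR adjusted p = 0.506). SPP1, the osteopontin gene, rose 1.18-fold from 65.2 CPM in 1-1 KO (edgeR adjusted p = 0.000372) and 3.36-fold to 219 CPM in 1-2 KO. ANXA4 rose from 135 CPM to 209 and 197 CPM, and PROM1 fell from 313 CPM to 235 and 170 CPM, both called in each knockout. Whether shifts of these markers had a part in the keratin differences was not tested.

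Markers of other cell types were also followed. The 8 mesenchymal markers summed to 186 to 196 CPM in WT, 281 to 295 CPM in 1-1 KO and 119 to 127 CPM in 1-2 KO, with THY1 and POSTN at 0 counts in WT. Of 5 tested, 3 were called higher and 0 lower in 1-1 KO, against 4 higher and 1 lower in 1-2 KO (60% and 100% called, beside 63.4% and 54.4% of all tested genes). COL1A2 and PDGFRB rose in both, and LUM, at 157 CPM in WT, rose to 206 CPM in 1-1 KO and fell to 62.1 CPM in 1-2 KO. The 8 leukocyte and endothelial markers summed to 8.91 to 9.62 CPM in WT, 10.0 to 10.7 CPM in 1-1 KO and 3.67 to 4.01 CPM in 1-2 KO, with the B cell marker MS4A1 at 0 counts in every library. Of 3 tested, CD14 and PTPRC were called higher in both knockouts, and PECAM1 was called lower in 1-2 KO (7.57 to 0.839 CPM), which made 66.7% and 100% called. PTPRC passed the filter through the knockouts alone, so that its calls, which are part of these shares, support nothing.

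The genes nearest in pattern to each keratin were found among 13314 non-keratin genes that averaged 1 CPM or more by the root mean square difference of log2(CPM + 1), centred on each gene's mean, over the 9 libraries. For KRT23 the nearest was HPGD, at 0.0678, with 54.6 CPM in WT, 101 CPM in 1-1 KO and 11.7 CPM in 1-2 KO. GPR35 followed at 0.153, with 4.14, 6.95 and 0.113 CPM. ANXA6 (0.136) was nearest to KRT80. Around the abundant pair the distances were smaller, with METTL14 (0.0224) and HIBADH (0.0241) nearest to KRT8 and ARFIP2 (0.0349) and CANT1 (0.0405) nearest to KRT18. The nearest genes were NCBP2AS2 (0.0618) and MVB12A (0.0632) for KRT19, and MXI1 (0.0629) and SLC17A9 (0.0672) for KRT10. For KRT7 (MYBL1 and SLC38A6) and KRT20 (SLIRP and RPL38) the added 1 CPM exceeded the level of the keratin itself and flattened its pattern. It also exceeded KRT80 in 1-1 KO (0.330 CPM) and GPR35 in 1-2 KO (0.113 CPM), so that their falls were flattened as well. ANXA6 measured 78.9 CPM in WT and 19.4 CPM in 1-1 KO, a smaller fall than that of KRT80.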

How the data were processed

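According to the study's methods, the authors aligned paired 50-base reads of stranded mRNA libraries to hg38 with STAR and obtained counts per gene from featureCounts. The deposited values are these read counts, whole numbers without normalization. Whether the counting used the strand and how it treated reads with several matches are not given in the sources used here. All 9 columns of the table matched a library by name, and 0 columns were left out.

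Positions, symbols and lengths came from GENCODE 44 on GRCh38. The tests used edgeR 4.0.16 in R 4.3.3, with filterByExpr (minimum count 10, minimum total 15), TMM and 1 quasi-likelihood fit of all 9 libraries with a term per line. Ratios within libraries were compared by exact permutation. Python 3.11.15 with pandas 2.3.3, numpy 2.4.6, scipy 1.17.1 and matplotlib 3.10.9 was used for the other steps, and transcript windows were matched to the genome with blastn 2.17.0. DESeq2 1.42.0 was an alternative. The edgeR step was tested on simulated data. Total counts between 32384469 and 41782387 limit the precision for KRT7 and KRT20, where 3 counts correspond to at most 0.0951 CPM.

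The keratins and the gene lists were chosen with earlier results of these data known. Genes named are the 8 keratins, the other keratins that passed the filter, from each list the 2 genes that had the lowest adjusted p in either knockout, the 2 nearest patterns per keratin, overlapping genes with counts and the most abundant pseudogenes. A gene picked by this rule may be left unreported here. Alternatives were other normalizations, filters and thresholds, a fit of the 2 lines compared, a replicate block, subtraction of the median of 50 neighbouring genes, other lengths, added pseudogene counts, and leaving out each library.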

Additional observations from a re-analysis of the deposited data

How the results depend on the processing

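Of 420 single-gene log2 fold changes under an alternative, 390 kept their direction and their side of the threshold, 21 lost the call, 5 gained it and 4 changed sign. Part of the 420 could move little or not at all. A stricter threshold reused the main fold changes, and some of the left-out libraries belonged to the line not compared. The sign changes were in values near 0 that were not called. They were KRT8 in 1-2 KO compared to WT with the neighbour median subtracted (-0.0023), KRT20 in 1-1 KO compared to WT without WT replicate 1 (-0.058, with a range over left-out libraries up to 0.44), and KRT19 in 1-2 KO compared to 1-1 KO without 1-2 KO replicate 2 (0.026) or replicate 3 (0.030, in a range from -0.26). No alternative under which KRT10, KRT23 or KRT80 could be tested changed a call of these genes. With scaling by library size alone, 7 keratins were called in 1-2 KO compared to WT, 3 higher and 4 lower, in place of 1 higher and 4 lower, since KRT8 (0.07, edgeR adjusted p = 0.0369) and KRT18 (0.17, edgeR adjusted p = 0.0147) were then called. With no filter on low counts KRT18 was also called there (0.11, edgeR adjusted p = 0.0432). With at least 10 counts in every library, 5 of the keratins could be tested, and 3 were called in 1-2 KO compared to WT and 4 in 1-2 KO compared to 1-1 KO. Leaving out each library in turn gave between 6 and 6 calls in 1-1 KO compared to WT, between 4 and 6 in 1-2 KO compared to WT and between 5 and 8 between the knockouts.

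Replicate numbers did not pair the libraries, since the correlations of deviations between libraries of the same number ranged from -0.353 to 0.182. Between libraries of different numbers and lines they ranged from -0.339 to 0.459, with the highest between WT replicate 3 and 1-2 KO replicate 1. With the replicate block, 6, 5 and 6 keratins were called in the 3 comparisons, and the change was KRT20 between the knockouts (-0.95, edgeR adjusted p = 0.0671). The block changed no other call.

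The log2 ratio of KRT8 to KRT18 depended on the length. Without division by length it was 1.16 in WT, 1.02 in 1-1 KO and 1.05 in 1-2 KO. With the union of exons, an alternative chosen after seeing the data, it was -0.0093, -0.15 and -0.11. With pseudogene counts added it was 0.76 in WT, 0.62 in 1-1 KO and 0.65 in 1-2 KO. The type II to type I log2 ratio was 0.94, 0.79 and 0.84 without division by length and -0.27, -0.44 and -0.38 with the union of exons. Leaving out each library, the difference in the KRT8 to KRT18 ratio from WT ran from -0.20 to -0.09 in 1-1 KO and from -0.16 to -0.06 in 1-2 KO, and that of the type II to type I ratio from -0.21 to -0.11 and from -0.17 to -0.06. Counting error weighs most on KRT7 and KRT20, which had at most 19 and 15 counts in a library.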
